A study of Homo sapiens with 9 samples.

Results

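The collagen chains are the genes whose products wind together into collagen, the main family of structural proteins outside the cell. They were taken as every row of the count table whose gene name is COL, a number, A and a number, which gave 44 chains among 38021 genes. Their RNA was measured in 786-O, an established human cell line from a clear cell renal cell carcinoma. These cells have no functional VHL, the protein that marks hypoxia-inducible factors for breakdown, and therefore hold HIF2α at ordinary oxygen. All 9 libraries came from cells infected with a lentivirus for a short hairpin RNA and kept in puromycin. The hairpins made 3 groups, of a control hairpin (shControl), one against ARNT (shARNT) and one against BMAL1 (shBMAL1), each with 3 libraries labelled as biological replicates. ARNT is the classical partner of HIF2α, and BMAL1 (ARNTL in the table) is its relative in the circadian clock. The study compared the groups to learn what each partner contributes to gene expression in these cells. The labels do not say whether the replicates of a group were separate infections, so the p-values measure the spread between these libraries, which may be technical.

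A collagen molecule is a rope of chains that are alike or different, and each chain carries glycine at a regular spacing so that the rope can close. Fibrillar collagens build the cables of connective tissue, and the FACIT collagens sit on their surface. Type IV collagen forms the sheet of the basement membrane on which kidney epithelium rests, type VI forms beaded filaments around cells, and type VII anchors epithelium to the tissue below. Type VIII is a short network collagen, type XVIII carries heparan sulfate and releases endostatin, and type XVII spans the plasma membrane. In renal carcinoma, as in other solid tumours, most fibrillar collagen is made by fibroblasts of the stroma, which are not part of a cell line culture.

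The glycine repeat is what the chains share at the level of sequence. Coding sequences were read from GENCODE transcripts on GRCh37, and a repeat was counted as an unbroken run of codon triplets that start with GGN, the codons of glycine. The longest run had 216 to 343 triplets in the 11 fibrillar chains, with 338 in COL1A1, and 23 to 113 in the other chains. Outside the fibrillar class the lengths overlapped between classes, with 66 in COL4A2 and 40 in COL4A1 of type IV, 87 in COL6A1 and COL6A2 and 45 in COL6A3 of type VI, and 30 in COL18A1. Runs of 5 or more triplets covered 72.7% of the codons of COL1A1, 75% of COL4A2 and 10.5% of COL6A3, whose chain is mostly made of other domains. The stretches below open the longest run of a fibrillar, a basement membrane and a beaded filament chain, with the glycine codons in capitals.
COL1A1: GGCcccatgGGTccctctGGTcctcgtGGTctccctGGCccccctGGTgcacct
COL4A2: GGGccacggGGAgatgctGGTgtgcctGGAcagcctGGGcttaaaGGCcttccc
COL6A3: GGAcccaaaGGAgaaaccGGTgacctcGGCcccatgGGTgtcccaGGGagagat
They begin at coding base 535 of COL1A1 (chr17:48261462-48278993, minus strand), 2344 of COL4A2 (chr13:110958159-111165556, plus strand) and 6502 of COL6A3 (chr2:238232646-238322971, minus strand), counted from the first base of the start codon.

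The libraries held between 33793045 and 35444735 reads each. ARNT had 2352 ± 184 normalised read counts in shControl and 1225 ± 23.2 in shARNT, and ARNTL had 761 ± 32 in shControl and 326 ± 29.2 in shBMAL1 (SD, n = 3), so each hairpin's own target was lowest in its group. The other partner also passed the test in each knockdown, where ARNT fell by 0.23 on the log2 scale with shBMAL1 (DESeq2 adjusted p 0.0187) and ARNTL by 0.26 with shARNT (adjusted p 0.0294). CA9, a marker of renal carcinoma cells, had only 19, 18 and 17 reads in shARNT. All 10 such markers that were looked up, among them PAX8, had a mean of at least 50 counts over the 9 libraries. Of 10 fibroblast markers 2 did (LUM and ACTA2), TCF21 was at 0 in every library, and the summed level of the list was 11.8 to 13.3 RPM with shControl, 11 to 12.7 with shARNT and 21 to 22 with shBMAL1, where RPM are reads scaled to a library of 1000000. None of 8 endothelial markers reached that mean, with CDH5 and EMCN at 0, and 2 of 8 leukocyte markers did (CD68 and CSF1R), with CD3E and LYZ at 0. Mitochondrially encoded genes took 5.49 to 7.18% of all reads with shControl, against 7.64 to 8.79% with shARNT and 8.77 to 9.73% with shBMAL1.

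Of the 44 chains, 15 had a mean of at least 50 counts over the 9 libraries, and changes are described for these. The chain nearest to this limit from above was COL17A1, with a mean of 92.7 counts, and from below COL13A1, with 45.8. The 15 were 3 of 11 fibrillar chains, 2 of 10 FACIT chains, 3 of 6 type IV chains, 1 of 3 short-chain network chains, 3 of 5 type VI chains, 1 of 2 multiplexins and 1 of 4 transmembrane chains, with the anchoring fibril chain COL7A1. COL1A2, which normally pairs with COL1A1 in type I collagen, had no read in any library, nor did COL6A5, COL19A1 and COL20A1; fewer than 3 reads could go unseen.

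Type VI and basement zone collagens made up nearly all collagen RNA of these cells. COL6A3 alone took 38.7% ± 2.23 of the collagen reads with shControl, but 30.1% ± 0.901 with shARNT and 34.7% ± 1.94 with shBMAL1 (SD, n = 3). The 7 most abundant chains, COL6A3, COL18A1, COL7A1, COL4A2, COL6A2, COL4A1 and COL6A1, took 94.6%, 92.6% and 92.7% together. Per kilobase of transcript, the order in shControl was COL6A3 at 101 ± 5.83 RPM per kilobase, COL18A1 at 74.6 ± 4.21, COL6A2 at 54.5 ± 3.73, COL4A2 at 48.5 ± 0.626 and COL7A1 at 42.3 ± 3.04. COL6A1 at 23.7 ± 1.28 and COL4A1 at 22.5 ± 0.449 followed, with overlapping intervals of the mean ± SD. COL8A1 had 8.07 and COL27A1 6.13, and the other 6 chains had between 0.503 and 2.6.

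**Figure D1:**
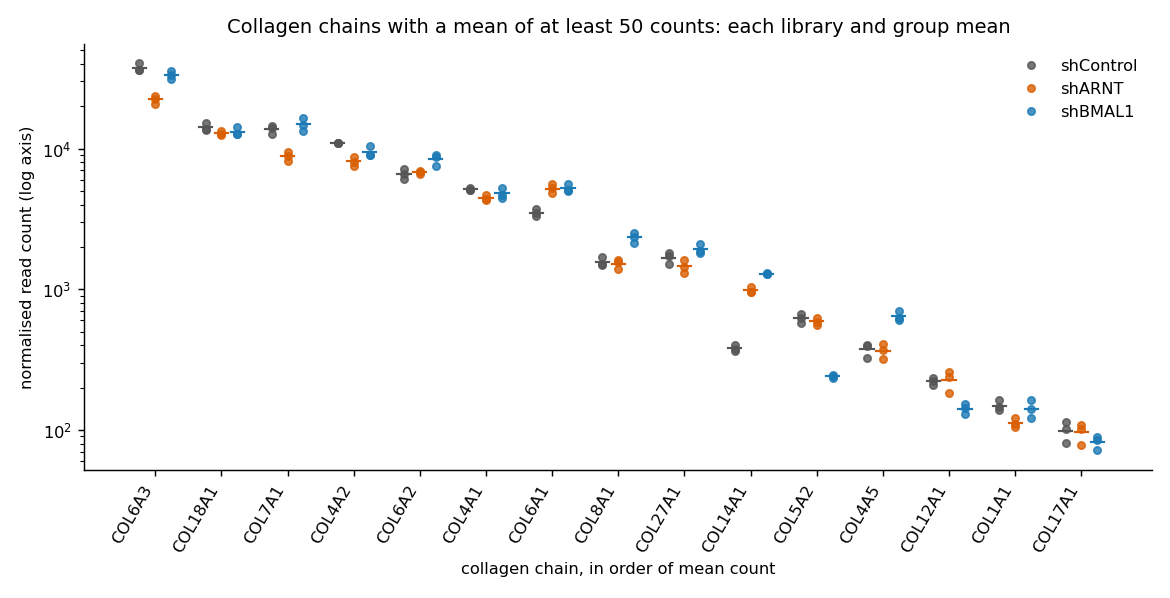
Normalised read counts (log axis) of the 15 collagen chains with a mean of at least 50 counts, in order of mean count; each point is a library and each short line a group mean (n = 3). COL6A3 and COL7A1 sit lower in shARNT, COL14A1 sits higher in both knockdowns, and COL5A2 sits lower in shBMAL1.

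Cells with shARNT held less collagen RNA in all. Collagen reads summed over the 44 chains came to 2729.9, 2765 and 2784 RPM in shControl, 2265, 2105 and 2074 in shARNT, and 2790.3, 2666 and 2995 in shBMAL1. Every shARNT library lay below every other library, and the shBMAL1 libraries lay on both sides of the control ones. The ratio of the group means was 0.778 for shARNT against shControl, 1.02 for shBMAL1 against shControl and 1.31 for shBMAL1 against shARNT. No test was run on these sums, and in a bulk library fewer cells with an RNA and less of it per cell cannot be told apart. Without the mitochondrial reads, whose share differed between the groups, the log2 ratios were −0.33, 0.08 and 0.41, against −0.36, 0.03 and 0.39 with them. Without COL6A3 the first became −0.17.

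**Figure D2:**
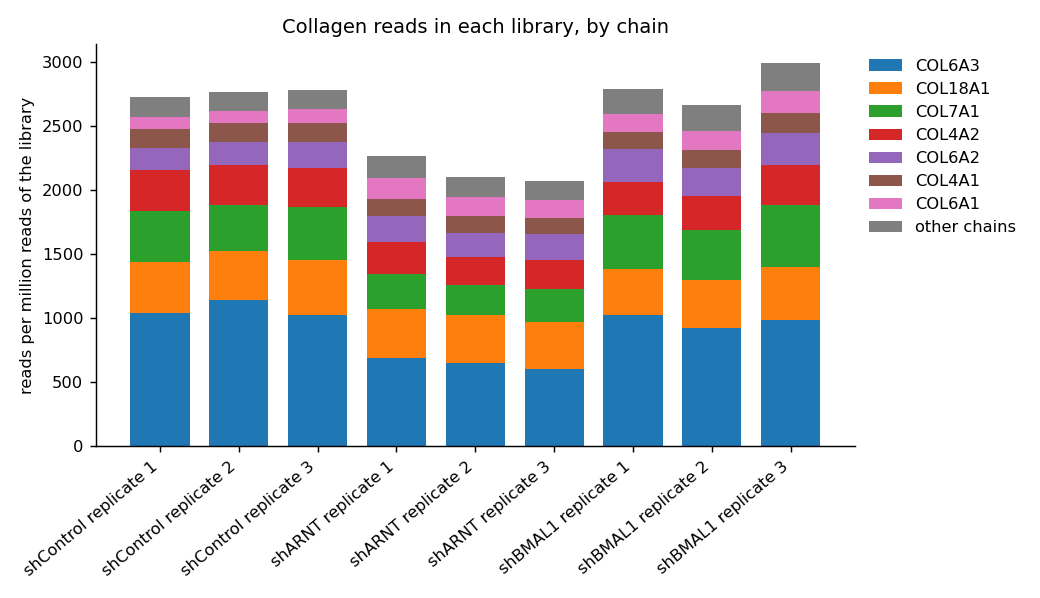
Collagen reads of each library in RPM, stacked by chain for the 7 most abundant chains and all other chains together. The shARNT bars end between 2074 and 2265, below the shControl bars at 2729.9 to 2784, and the COL6A3 block is shortest there.

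The first comparison set shARNT against shControl, and it cannot tell loss of ARNT from other effects of this hairpin. With shARNT, 7 of the 15 chains fell (46.7%) and 2 rose (13.3%) at a DESeq2 adjusted p under 0.1, where 21.2% of all 12947 tested genes with a mean of at least 50 counts fell and 18.4% rose. The chains' median log2 fold change was −0.07, and that of all these genes was −7.2e-05. The chains that fell were COL6A3, COL7A1, COL4A2, COL4A1, COL18A1, COL27A1 and COL1A1, and the 2 that rose were COL14A1 and COL6A1. The number of chains called lower was 4 without shControl replicate 3, without shARNT replicate 2 or without shARNT replicate 3, and also 4 after counts were corrected for GC content; the calls of COL18A1, COL27A1 and COL1A1 were the ones lost after that correction.

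The second comparison set shBMAL1 against shControl, with the same limit for its hairpin. With shBMAL1, 4 of the 15 chains fell (26.7%) and 6 rose (40%), where 26.8% of all genes fell and 20.8% rose, so the share that fell was at the background and the share that rose was above it. The chains that fell were COL5A2, COL12A1, COL4A2 and COL6A3, and those that rose were COL14A1, COL4A5, COL8A1, COL6A1, COL6A2 and COL27A1. The chains' median was −0.07 and that of all genes −0.02. Both knockdowns were set against the same 3 control libraries, so the 2 sets of values are not independent.

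Set directly against each other, shBMAL1 cells had 8 chains higher than shARNT cells (53.3%) and 2 lower (13.3%), where 20.3% of all genes were higher and 24.0% lower. The median over the chains was 0.31 and over all genes −0.02. The 8 were COL4A5, COL7A1, COL8A1, COL6A3, COL27A1, COL14A1, COL6A2 and COL4A2, and the 2 were COL5A2 and COL12A1.

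**Figure D3:**
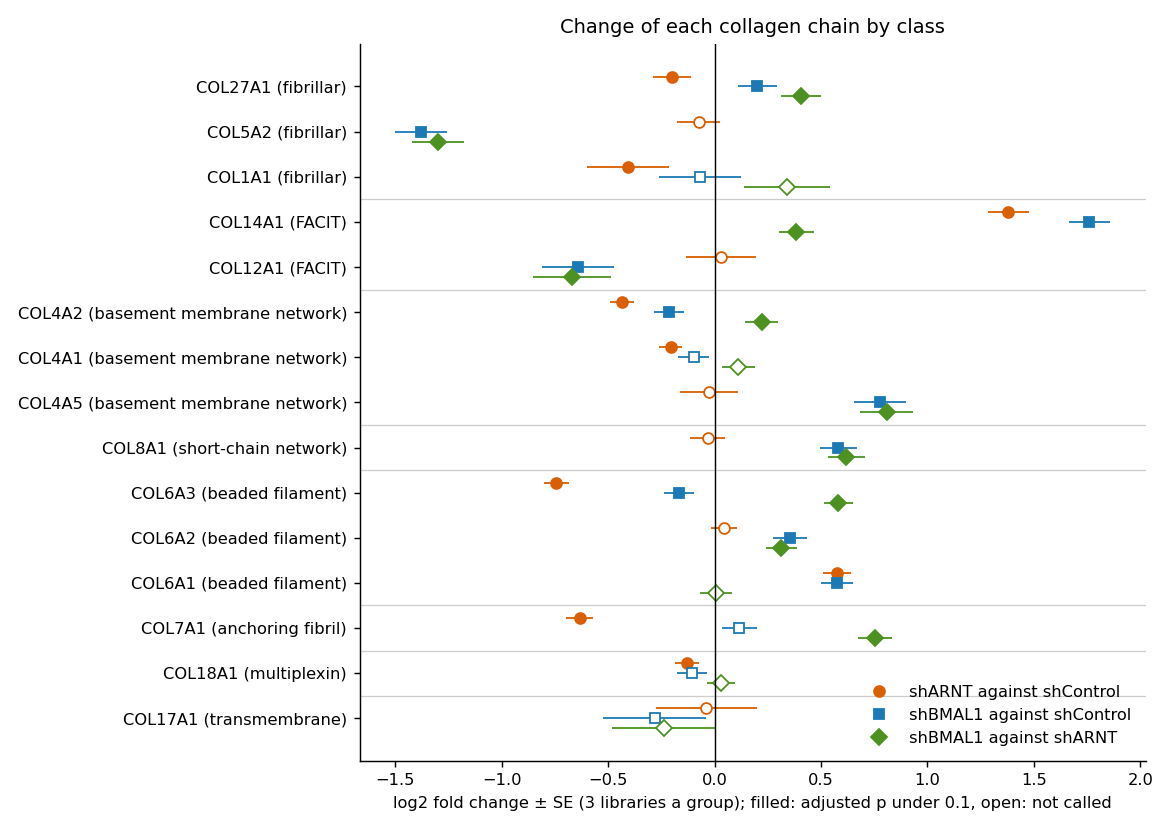
Log2 fold change ± SE of each of the 15 chains in the 3 comparisons, grouped by collagen class (3 libraries a group); filled symbols passed an adjusted p of 0.1 in DESeq2 and open ones did not. COL14A1 lies far to the right in both knockdowns, COL5A2 far to the left with shBMAL1 alone, and the chains of types IV and VI lie on both sides of 0.

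Type VI collagen, the beaded filament, holds the most abundant chain and showed chains moving in opposite directions. COL6A3 had 36082, 40366 and 36105 normalised read counts in shControl, 23657, 22455 and 20913 in shARNT, and 35696, 31417 and 33220.2 in shBMAL1. The 3 groups did not overlap, with shARNT far below the other two. COL6A3 fell with shARNT by 0.74 on the log2 scale (SE 0.06, adjusted p 4.51e-34), a fold of 0.597, and by 0.17 with shBMAL1 (SE 0.07, adjusted p 0.0525). The shBMAL1 call was lost without shControl replicate 2 (adjusted p 0.289, with −0.11), shBMAL1 replicate 2 (0.248) or shBMAL1 replicate 3 (0.113). The 2 knockdowns themselves differed by 0.58 (SE 0.07, adjusted p 1.4e-15).

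COL6A1, a shorter chain of the same filament, went the other way. It had 3308, 3471 and 3724 counts in shControl, 5557, 5206 and 4829 in shARNT, and 5057, 4970.5 and 5628 in shBMAL1. All 6 knockdown libraries lay above all control libraries and overlapped with each other. COL6A1 rose by 0.57 with shARNT (SE 0.07, adjusted p 1.77e-16) and by 0.57 with shBMAL1 (SE 0.08, adjusted p 5.17e-13), about 1.49-fold in both. The direct difference was 0.0047 with a 95% interval from −0.14 to 0.15.

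COL6A2 lies beside COL6A1 on chromosome 21 (47401684 to 47424964 for COL6A1 and 47518026 to 47552762 for COL6A2, both on the plus strand) and passed the test with shBMAL1. It had 6115, 6566 and 7103 counts in shControl, 6901, 6597 and 6840.2 in shARNT, and 9071, 7565 and 8668 in shBMAL1. The shBMAL1 libraries were the highest and the other groups overlapped. COL6A2 rose by 0.35 with shBMAL1 (SE 0.08, adjusted p 9.01e-05), and the value with shARNT was 0.04 (95% interval −0.07 to 0.16, adjusted p 0.657). The difference between the knockdowns was 0.31 (SE 0.07, adjusted p 0.000159).

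COL7A1 encodes the chain of the anchoring fibril, a homotrimer that ties basement membrane to the matrix below. It had 13948, 12687 and 14429 counts in shControl, 9384, 8170.4 and 8862 in shARNT, and 14659, 13407 and 16503 in shBMAL1. The shARNT libraries lay below all others and the other groups overlapped. COL7A1 fell by 0.63 with shARNT (SE 0.06, adjusted p 5.75e-22), a fold of 0.645, and had 0.12 with shBMAL1 (95% interval −0.04 to 0.27, adjusted p 0.297), which passed the threshold after the GC correction (0.15, adjusted p 0.0729) and when shBMAL1 replicate 2 was left out (0.19, adjusted p 0.0701). It was higher in shBMAL1 than in shARNT by 0.75 (SE 0.08, adjusted p 6.99e-19).

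Type IV collagen of the basement membrane divided by chain. COL4A2 had 10989, 11000.1 and 10912 counts in shControl, 8704, 7514 and 8082 in shARNT, and 8999, 8999.6 and 10371 in shBMAL1. The control libraries were the highest, and shARNT the lowest, without overlap. COL4A2 fell by 0.43 with shARNT (SE 0.06, adjusted p 8.53e-13) and by 0.22 with shBMAL1 (SE 0.07, adjusted p 0.00862). The direct difference of 0.22 (adjusted p 0.0169) was not called without shARNT replicate 2 (0.17, adjusted p 0.153) or when shBMAL1 replicate 3 was left out (0.15, adjusted p 0.144).

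COL4A1, its partner in the common basement membrane trimer, moved less. It had 5106, 5095 and 5266 counts in shControl, 4708, 4365 and 4298 in shARNT, and 4485, 4710.5 and 5264 in shBMAL1. The shARNT libraries lay below the control ones, and the shBMAL1 libraries reached into the range of both. COL4A1 fell by 0.21 with shARNT (SE 0.06, adjusted p 0.00129), and had −0.10 with shBMAL1 (95% interval −0.24 to 0.04, adjusted p 0.335). The direct value was 0.11 (adjusted p 0.294). Leaving out shBMAL1 replicate 3 gave the shBMAL1 value −0.17 (adjusted p 0.0623), and leaving out shBMAL1 replicate 1 gave the direct value 0.16 (adjusted p 0.0858).

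COL4A1 and COL4A2 are transcribed away from each other from starts that RefSeq places 126 bases apart, at chr13:110307158-110307283 of GRCh38.p14. The bases between the starts are shown, on the strand of COL4A2, because both chains are transcribed from their ends.
COL4A1 and COL4A2: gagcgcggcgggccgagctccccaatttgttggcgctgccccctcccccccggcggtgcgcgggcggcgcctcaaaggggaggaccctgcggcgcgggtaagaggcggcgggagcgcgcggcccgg
The stretch is written in lower case throughout since it holds no E-box (CACGTG) and no hypoxia response core (ACGTG or, in its other form, GCGTG).

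COL4A5, a type IV chain of the mature glomerular and tubular basement membrane, stood apart from both. It had 393, 404 and 323 counts in shControl, 410.2, 367 and 321 in shARNT, and 622, 606 and 697 in shBMAL1. The shBMAL1 libraries were all above the others, which overlapped. COL4A5 rose by 0.78 with shBMAL1 (SE 0.12, adjusted p 3.36e-09), a 1.71-fold change, and was higher than in shARNT by 0.81 (SE 0.12, adjusted p 9.02e-10). With shARNT its value was −0.03 (95% interval −0.29 to 0.24). Its divergent neighbour COL4A6, whose RefSeq start lies 379 bases away, had 4, 3 and 13 reads in shBMAL1 and at most 2 elsewhere. The type IV chains COL4A3 and COL4A4 had means of 4.44 and 6 counts.

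COL18A1, the basement membrane multiplexin, changed little. It had 13628, 13730.3 and 15118 counts in shControl, 13422, 12770.1 and 12527 in shARNT, and 12656, 12726 and 14156 in shBMAL1. The shARNT libraries fell just short of the control ones and overlapped with the shBMAL1 ones. COL18A1 fell by 0.13 with shARNT (SE 0.055, adjusted p 0.0584), a call lost in a single fit of all libraries (adjusted p 0.109), after the GC correction (−0.08, adjusted p 0.165), and without shControl replicate 3 (−0.08, adjusted p 0.311), shARNT replicate 2 (0.177) or shARNT replicate 3 (0.226). Its value with shBMAL1 was −0.11 (95% interval −0.24 to 0.03, adjusted p 0.272), which passed when shBMAL1 replicate 3 was left out (adjusted p 0.0781), and the direct value was 0.03 (adjusted p 0.807). SLC19A1, on the opposite strand, shares 1563 exonic bases with COL18A1, and the strand setting of the counting is not given in the sources used here; SLC19A1 itself had 1767 ± 39.1 counts in shControl and 1745 ± 135 in shARNT.

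COL8A1, a short network chain made by endothelial and mesangial cells among others, rose with shBMAL1. It had 1478, 1511 and 1696 counts in shControl, 1563, 1606 and 1399 in shARNT, and 2141, 2371 and 2504 in shBMAL1. The shBMAL1 libraries stood above the rest and the other groups overlapped. The log2 fold change was 0.58 with shBMAL1 (SE 0.09, adjusted p 3.61e-10) and 0.62 against shARNT (SE 0.09, adjusted p 2.17e-11). With shARNT it was −0.03 (95% interval −0.19 to 0.12).

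Among the 15 chains with a mean of at least 50 counts, a FACIT chain had the highest rise. COL14A1, which binds the surface of fibrils, had 375, 405 and 362 counts in shControl, 1041, 963 and 962 in shARNT, and 1287, 1278 and 1310.2 in shBMAL1. The groups formed 3 steps without overlap. COL14A1 rose 2.6-fold with shARNT (log2 1.38, SE 0.10, adjusted p 1.12e-43) and 3.39-fold with shBMAL1 (log2 1.76, SE 0.10, adjusted p 6.71e-72). The step from shARNT to shBMAL1 was 0.38 (SE 0.08, adjusted p 3.59e-05).

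COL12A1, its relative among the FACIT chains, went down with shBMAL1. It ran from 207 to 234 counts in shControl, from 182 to 258 in shARNT and from 130.1 to 152 in shBMAL1. It fell by 0.64 with shBMAL1 (SE 0.17, adjusted p 0.000861) and was lower than in shARNT by 0.67 (SE 0.18, adjusted p 0.00144). With shARNT the value was 0.03 (95% interval −0.29 to 0.35).

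Among the fibrillar chains, COL5A2 had the deepest fall of the 15. This chain belongs to type V collagen, which starts fibrils together with COL5A1. It had 662, 629 and 578 counts in shControl, 622, 559.7 and 589 in shARNT, and 235, 244 and 241 in shBMAL1. The shBMAL1 libraries were far below the others, which overlapped. COL5A2 fell by 1.38 with shBMAL1 (SE 0.12, adjusted p 6.69e-28), a fold of 0.385, and was lower than in shARNT by 1.30 (SE 0.12, adjusted p 3.42e-25). With shARNT it had −0.07 (95% interval −0.27 to 0.12).

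COL27A1, a fibrillar chain best known from cartilage, was the only one of the 15 called in opposite directions in the 2 knockdowns. It had 1813, 1510.3 and 1713 counts in shControl, 1624, 1307 and 1444 in shARNT, and 1806, 1883 and 2107 in shBMAL1. Each knockdown group overlapped with the control group, while the knockdown groups did not overlap with each other. COL27A1 fell by 0.20 with shARNT (SE 0.09, adjusted p 0.0798) and rose by 0.20 with shBMAL1 (SE 0.09, adjusted p 0.0784). The first call was lost without shControl replicate 1 (adjusted p 0.354) or 3 (0.206) and without shARNT replicate 2 (−0.13, adjusted p 0.4) or 3 (0.199). The second was lost without shControl replicate 2 (0.13, adjusted p 0.369) or 3 (0.14) and without shBMAL1 replicate 2 (0.109) or 3 (0.13, adjusted p 0.34). The direct difference of 0.40 (SE 0.09, adjusted p 0.00015) was called whichever library was left out.

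COL1A1, the main chain of type I collagen in connective tissue, was scarce. It ran from 138 to 162 counts in shControl, from 105 to 121 in shARNT and from 122 to 164 in shBMAL1. Its fall of 0.41 with shARNT (SE 0.19, adjusted p 0.0993) was not called without any 1 of the 6 libraries, with adjusted p from 0.134 to 0.32. With shBMAL1 it had −0.07 (95% interval −0.45 to 0.31) and directly 0.34 (adjusted p 0.216). COL17A1, the transmembrane chain of hemidesmosomes, ran from 81 to 114 counts in shControl, 78 to 108 in shARNT and 71.5 to 88.7 in shBMAL1. Its values of −0.04, −0.28 and −0.24 were called in no comparison, and the groups overlapped throughout.

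Chains that assemble in 1 molecule were also set against each other within a library, where scaling cancels. Of 10 partner pairs, 3 had both chains at a mean of at least 50 counts. The ratio of COL6A1 to COL6A3 reads was 0.0917, 0.086 and 0.103 in shControl, 0.235, 0.232 and 0.231 in shARNT, and 0.142, 0.158 and 0.169 in shBMAL1. It was thus highest in shARNT and lowest in shControl in every library. The log2 difference was 1.32 for shARNT against shControl, 0.74 for shBMAL1 against shControl and −0.58 for shBMAL1 against shARNT.

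The ratio of COL6A1 to COL6A2 was 0.531 ± 0.00868 with shControl, 0.767 ± 0.0532 with shARNT and 0.621 ± 0.0554 with shBMAL1 (SD, n = 3). That of COL4A1 to COL4A2 was 0.47 ± 0.0108, 0.551 ± 0.0261 and 0.51 ± 0.0127. In each of the 9 tests the groups did not overlap, and the exact two-sided permutation p was 0.1, also after Benjamini-Hochberg adjustment over the 9, which is the smallest that 3 against 3 libraries can give. No pair could therefore pass a threshold of 0.05. How often ratios of other gene pairs are free of overlap was not counted. The pairs hold chains whose calls are given above, so the ratios are not a separate result.

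**Figure D4:**
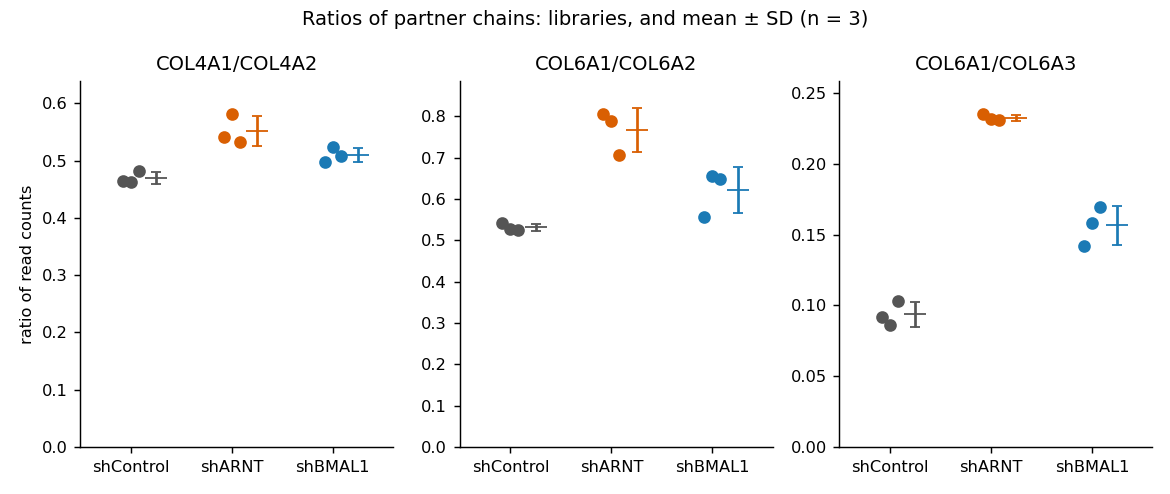
Ratio of the reads of 2 chains that assemble together, in each library (points) with the group mean ± SD (n = 3); each panel has its own axis from 0. In all 3 panels the order is shControl lowest, shBMAL1 between and shARNT highest, without overlap, from 0.0936 to 0.233 for COL6A1 to COL6A3.

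The other 29 chains had a mean under 50 counts and are given by their reads alone. Of these, 25 had a read in at least 1 library, and 24 had a mean under 10, with at most 22 reads in a library. COL16A1, a FACIT chain, had 72, 66 and 67 reads in shControl, 27, 21 and 24 in shARNT, and 23, 21 and 36 in shBMAL1. The control libraries were thus all above the knockdown ones. COL21A1, another FACIT chain, had 39, 64 and 27 reads in shBMAL1 and at most 8 in any other library. COL5A1, the partner of COL5A2, had 22, 16 and 16 reads in shBMAL1 and at most 7 elsewhere, so the pair of type V chains differed in direction there, on few reads.

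COL13A1, a transmembrane chain, ran from 32 to 45 reads in shControl, 53 to 73 in shARNT and 27 to 44 in shBMAL1. COL11A2 ran from 9 to 31, 22 to 36 and 37 to 60, and COL28A1 from 4 to 13, 6 to 17 and 19 to 30. COL23A1 had 7, 10 and 5 reads in shBMAL1 and at most 1 elsewhere, and COL5A3 had 13, 3 and 5 there and 0 in the other 6 libraries. The summed fibroblast markers also had their highest level in shBMAL1. LUM stood at 188 ± 12.9 counts against 90.9 ± 28.1 in shControl and ACTA2 at 471 ± 26.3 against 308 ± 6.57 (SD, n = 3). The markers did not all go this way. PDGFRA had 27, 46 and 37 reads in shBMAL1 and at most 12 elsewhere. FAP had 1, 0 and 0 in shBMAL1 and 12, 9 and 5 in shARNT, and PDGFRB and THY1 passed in no comparison. The part of this list in these values was not tested.

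The genes that collagen chains need inside the cell were described next, from lists of the pathway. Of 17 genes for folding and hydroxylation with a mean of at least 50 counts, 11 fell and 2 rose with shARNT, beside the 21.2% and 18.4% of all genes, and their median log2 fold change was −0.15. P4HA2, a prolyl hydroxylase subunit, fell by 0.55 (adjusted p 1.09e-22), and FKBP10, a chaperone of the endoplasmic reticulum, fell by 0.55 (adjusted p 1.97e-32) but rose by 0.17 with shBMAL1 (adjusted p 0.0592). MIA3, which helps load large collagen cargo for export, rose by 0.20 (adjusted p 0.00494), and the lysyl hydroxylase PLOD1 by 0.14 (adjusted p 0.0106).

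With shBMAL1, 7 of these 17 fell and 5 rose, beside 26.8% and 20.8% of all genes, with a median of −0.08. By edgeR 5 of the 17 fell there, while the shares of all genes given here come from DESeq2. The lysyl hydroxylases parted: PLOD3 fell by 0.64 (adjusted p 3.1e-21), while PLOD2 rose by 0.40 (adjusted p 6.02e-08) after a fall by 0.41 with shARNT (adjusted p 1.03e-18). FKBP14 fell by 0.54 (adjusted p 4.69e-08) and CRTAP, a part of the prolyl 3-hydroxylase complex, rose by 0.34 (adjusted p 1.72e-05) after a fall by 0.15 with shARNT (adjusted p 0.00799). In the direct comparison 4 of the 17 were lower in shBMAL1, near the 24.0% of all genes, and 7 were higher, where 20.3% of all genes were.

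Genes that trim and cross-link collagen outside the cell had the lowest medians of the 5 lists in both knockdowns. Of 10 such genes, 7 fell and 2 rose with shARNT (median −0.70), 5 fell and 2 rose with shBMAL1 (median −0.57), and 1 was lower and 4 were higher in the direct comparison. Of all genes, 21.2% fell and 18.4% rose with shARNT, 26.8% fell and 20.8% rose with shBMAL1, and 24.0% were lower and 20.3% higher directly, so the share that rose was near the background in both knockdowns. LOX, which cross-links collagen and elastin, had 526 ± 38.5 counts with shControl, 176 ± 18.5 with shARNT and 245 ± 18.1 with shBMAL1. It fell by 1.58 (adjusted p 2.01e-30) and, with shBMAL1, fell by 1.11 (adjusted p 2.6e-16). ADAMTS2, which removes the amino end of procollagen, fell by 1.57 (adjusted p 2.4e-07) and by 1.95 (adjusted p 2.68e-10). It had 103 ± 4.03 counts with shControl, 34.5 ± 7.23 with shARNT and 26.5 ± 2.45 with shBMAL1. Its mean of 54.6 passed the limit of 50 only through shControl, and it is among the genes counted above as falling in both knockdowns. TLL2 rose by 0.55 with shARNT (adjusted p 0.0962) and fell by 1.12 with shBMAL1 (adjusted p 0.00252). BMP1, which removes the carboxyl end, fell by 0.23 with shARNT (adjusted p 0.000388) and rose by 0.40 with shBMAL1 (adjusted p 1.84e-08), and ADAMTS3 rose by 0.16 (adjusted p 0.0962) and 0.22 (adjusted p 0.0289).

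Of 7 collagen receptors, 4 fell and none rose with shARNT, and 3 fell and 3 rose with shBMAL1, with 2 lower and 3 higher in the direct comparison. Over all genes these shares were 21.2% and 18.4%, 26.8% and 20.8%, and 24.0% and 20.3%, and with 7 receptors 1 gene moves a share widely. The medians were −0.16, 0.09 and 0.10. ITGA2, the collagen-binding integrin subunit, fell by 0.72 in both (adjusted p 3.25e-21 and 8.93e-17). CD44 fell by 1.21 with shBMAL1 (adjusted p 2.28e-32) and had 0.04 with shARNT. MRC2, an endocytic collagen receptor, fell by 0.34 with shARNT (adjusted p 4.18e-08) and rose by 0.50 with shBMAL1 (adjusted p 8.5e-13), where ITGA1 rose by 0.43 (adjusted p 0.00171).

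Of 12 genes for collagen breakdown, 4 fell and 5 rose with shARNT and 3 fell and 5 rose with shBMAL1, with 2 lower and 5 higher in the direct comparison. Beside the 26.8% of all genes that fell with shBMAL1, the 3 of 12 were at the background, and the 5 of 12 that rose or were higher stood beside 18.4%, 20.8% and 20.3%. The 4 that fell with shARNT stood beside 21.2%, and the 2 lower directly beside 24.0%. The medians were 0.06, 0.16 and 0.10. MMP13, a collagenase, had 170.3 ± 12.1 counts with shControl, 576 ± 38.5 with shARNT and 4917 ± 157 with shBMAL1, a rise by 1.76 and by 4.85 on the log2 scale (adjusted p 1.45e-40, and written by the tool as 0). The collagenase MMP1 rose by 0.95 with shARNT and by 2.18 with shBMAL1 (adjusted p 2.93e-08 and 1.26e-60). MMP15 rose by 1.48 with shARNT (adjusted p 5.18e-15), where MMP9 fell by 0.84 (adjusted p 0.00586), while MMP9 rose by 0.70 with shBMAL1 (adjusted p 0.006). The inhibitor TIMP2 fell by 1.28 with shBMAL1 (adjusted p 1.22e-45) and rose by 0.36 with shARNT (adjusted p 1.62e-06). The lysosomal collagenase CTSK fell by 0.78 and by 0.93 (adjusted p 0.00787 and 0.000767).

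Of 14 partners of type IV and type XVIII collagen in the basement membrane, 6 fell and 4 rose with shARNT (median −0.12) and 4 fell and 5 rose with shBMAL1 (median −0.0030), with 2 lower and 5 higher in the direct comparison (median 0.10). The shares of all genes were 21.2% and 18.4%, 26.8% and 20.8%, and 24.0% and 20.3%, so the 4 of 14 that fell with shBMAL1 were near the background and the 2 of 14 lower directly were below it. LAMA5, a laminin chain, rose by 1.34 and by 2.07 (adjusted p 9.3e-63 and 2.03e-158), while LAMB3 fell by 1.17 and by 1.33 (adjusted p 1.45e-61 and 1.35e-59). FN1, the gene of fibronectin, rose by 0.47 with shARNT (adjusted p 3.43e-11). The linkers between laminin and type IV collagen went apart in both knockdowns. NID1 fell by 0.67 with shARNT and by 1.16 with shBMAL1 (adjusted p 3.72e-12 and 3.3e-34), and NID2 rose by 0.29 and by 0.81 (adjusted p 0.000258 and 5.15e-20). Of 9 fibril-associated proteoglycans 2 reached a mean of 50 counts. VCAN rose by 0.28 and by 0.59 (adjusted p 0.00026 and 1.23e-13), and LUM, which is also on the fibroblast list, rose by 1.05 with shBMAL1 (adjusted p 1.67e-05).

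**Figure D5:**
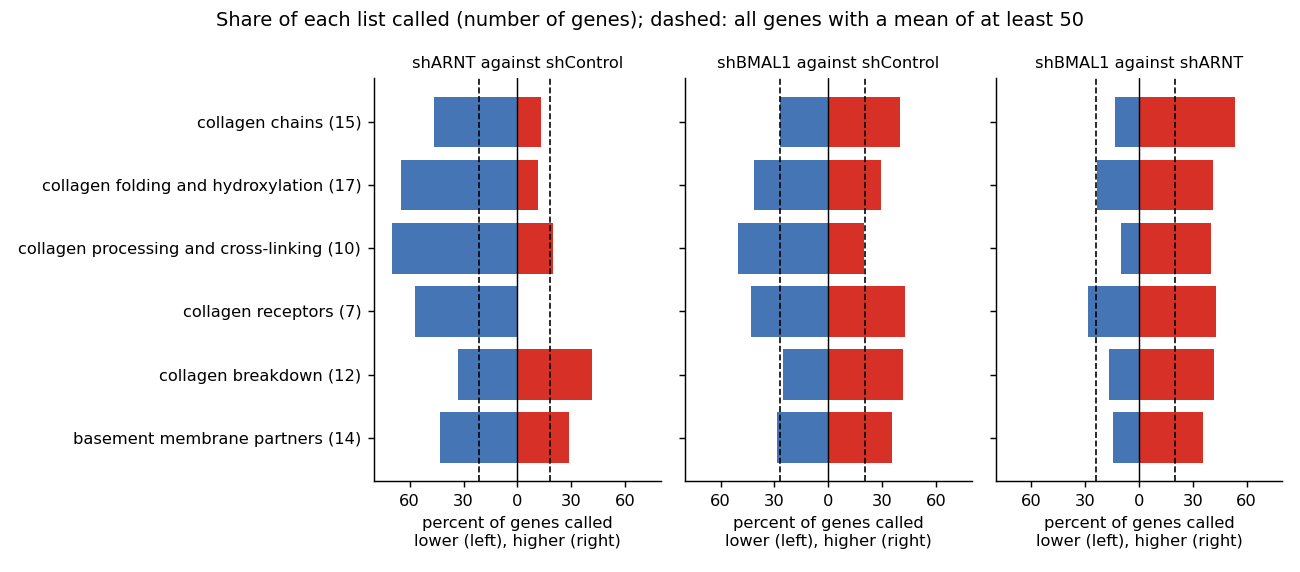
Percent of the genes of each list called lower (left, blue) and higher (right, red) in the 3 comparisons, for the 15 collagen chains and 5 lists of genes that work with them; dashed lines show the percent called among all 12947 genes with a mean of at least 50. With shARNT, 7 of 15 chains and 11 of 17 folding genes lie on the lower side, and against shARNT 8 of 15 chains were higher in shBMAL1.

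The bases before the start of transcription were read for the letters that BMAL1 and HIF dimers are known to bind, on both strands. These were the E-box CACGTG and the hypoxia response core in its forms ACGTG and, with another first letter, GCGTG. Every E-box match also holds the first form of the core. RefSeq promoter windows on GRCh38.p14 were at hand for 10 of the 15 chains. They were lacking for COL14A1, COL5A2, COL6A1, COL8A1 and COL1A1, so the chains with the highest rise and the deepest fall are not covered. Within 250 bases before a start, CACGTG occurred in 0 of the 10 chains and in 6.34% of all 35116 windows, ACGTG in 1 (COL12A1) and in 18.5% of the windows, and GCGTG in 3 (COL12A1, COL18A1 and COL4A2) and in 32.2%. A match is a description of the letters, and binding was not measured in these files.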

How the data were processed

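RNA was sequenced from 9 libraries of 786-O cells, 3 each of shControl, shARNT and shBMAL1, as the sample titles group them. The authors deposited estimated counts per gene, with 0.009 in place of 0. Fractional values (6.14% of those above 0) were rounded. Rows with the same name (53) were added, which left 38021 genes. The labels name STAR and hg38, whereas the methods of the study name SeqMan NGen 17 and GRCh37 for alignment, so which made these counts is not settled. The kit kept strand, and the strand setting of the counting is not given in the sources used here.

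Each comparison was fitted in DESeq2 1.42.0 on the 6 libraries of its 2 groups over all genes, with the Wald test, size factors by median of ratios and Benjamini-Hochberg adjustment, and called at an adjusted p under 0.1, as the study did. Changes are described for genes with a mean of at least 50 counts. Normalised read counts were divided by size factors over all 9 libraries, and levels per kilobase used the GENCODE 44 main transcript. Depth was alike (33793045 to 35444735 reads). Libraries of the same group differed by a chi-square per degree of freedom of 7.18 to 16.4, more than sampling noise, and of different groups by 44.5 to 93.9. Partner ratios were tested with exact permutation tests (scipy 1.17.1).

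Alternatives were edgeR 4.0.16 with TMM, TMM size factors, a filter of 10 counts in 3 libraries, adjusted p under 0.05, a 1.5-fold minimum, a single fit of 9 libraries, the replicate number as a block, a loess correction for GC content (span 0.3), other mean limits (10 and 200), and each library left out. The scripts were tested on simulated data. Named were all chains with a mean of at least 50, with each library for the 12 most abundant, and for each list the 2 lowest and 2 highest called genes per knockdown. The chains and lists were chosen with earlier results of these data known.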

Additional observations from a re-analysis of the deposited data

How the results depend on the processing

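Of 585 values of single chains under alternative settings, 524 kept their direction and side of the threshold, 32 kept their direction and lost the call, 6 gained a call and 23 changed sign. No called value changed sign. The 7 chains lower with shARNT became 4 after the GC correction, 4 with the replicate block and GC correction together, 4 at an adjusted p under 0.05, 2 with a 1.5-fold minimum and 4 to 6 without single libraries. The 1.5-fold minimum also left 1 chain higher with shARNT, 2 lower and 2 higher with shBMAL1, and 3 higher in the direct comparison, where a mean of at least 200 left 1 lower. The shares of all genes called under these alternative settings were not counted, so these numbers of chains have no background beside them. Without COL6A3 the log2 ratios of collagen reads were −0.17 (shARNT), 0.12 (shBMAL1) and 0.30 (direct). By edgeR 2 leukocyte markers were lower in the direct comparison, against 1 in DESeq2.

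Sign changes were seen only in uncalled values near 0. With shARNT, COL17A1 was 0.0066 after the GC correction and 0.0055 with the block added (−0.16 to 0.091 without single libraries), and COL4A5 was 0.0031 and 0.0029 (−0.12 to 0.062). Without single libraries COL12A1 ran from −0.079 to 0.16, COL6A2 from −0.0098 to 0.10 and COL8A1 from −0.073 to 0.029 with shARNT, and COL1A1 from −0.19 to 0.030 with shBMAL1. Directly, COL18A1 was −0.0029 and −0.0037 in the same corrections (−0.026 to 0.059), and COL6A1 −0.0029 and −0.0030 (−0.054 to 0.053). The cause of these shifts was not tested.

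The replicate numbers mark no shared batch in the labels, and same-numbered libraries correlated by −0.15 to 0.11 in their deviations, other pairs by −0.27 to 0.23. With the replicate block 5 chains were lower with shARNT and 5 higher with shBMAL1, the other counts being 2, 4, 8 and 2 as without it.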
